A study of Mus musculus with 16 samples.

Results

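Malat1, Neat1, Kcnq1ot1, Meg3, Rian, Mirg, Miat and Snhg11 are long noncoding RNAs known from the nucleus, and their levels were followed in cell bodies and axons of Hnrnpr-/- and +/+ motoneurons. They were taken by gene symbol from the count table, where they are 8 of 46320 genes and 8 of 13305 genes annotated as lncRNA. They were chosen by their axonal levels, because a list of nuclear RNAs was high in axonal libraries of these data, so that their axonal and somatodendritic levels are given as a description and without a test. All 8 passed the filter on low expression, as did 19964 genes in all, of which 2884 are lncRNA genes.

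The cells came from lumbar spinal cord of mice at embryonic day 13 and were enriched with an antibody against p75NTR, a surface receptor of motoneurons. They were plated in the central compartment of microfluidic chambers, from which axons grow through channels into a separate compartment. All cultures received CNTF at 5 ng/ml on both sides and BDNF at 20 ng/ml on the axonal side only, in neurobasal medium with B27, horse serum and GlutaMAX. The 4 groups were +/+ and Hnrnpr-/- somatodendritic and +/+ and Hnrnpr-/- axonal samples, with 4 libraries each, which the study describes as biological replicates. Hnrnpr-/- mice carried a CRISPR/Cas9 deletion of the first exons of Hnrnpr in every cell, on a C57Bl/6 background. Axonal cDNA was made in the full reaction volume and with more PCR cycles, somatodendritic cDNA in a smaller volume, and these steps and the compartment cannot be told apart. The libraries held between 22024923 and 34864151 counts. Values are given as CPM, that is counts scaled to library size with TMM factors, as mean ± SD with n = 4, and as fitted log2 differences with their standard errors.

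Malat1 is one of the most abundant nuclear RNAs of mammalian cells and gathers in nuclear speckles, the bodies that store splicing factors. Neat1 is transcribed from the neighbouring gene and is the scaffold on which paraspeckles assemble. Kcnq1ot1 is made from the paternal chromosome and silences neighbouring genes in cis, whereas Meg3, Rian and Mirg come from the maternal copy of the imprinted Dlk1-Dio3 region. Miat, also called Gomafu, forms its own spots in the nuclei of neurons, and Snhg11 is a host gene of snoRNAs that is high in neurons. RNAs of this kind are retained in the nucleus, and the nuclei of the plated motoneurons lie in the somatodendritic compartment of the chamber. Whether cells of other types were present on the axonal side was not tested, and their markers are given below.

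On GRCm39, Malat1 spans bases 5845718 to 5852700 of chromosome 19 and Neat1 bases 5874736 to 5895508, both on the minus strand. Kcnq1ot1 spans bases 142766848 to 142850284 of chromosome 7, also on the minus strand. For these 3 RNAs the exon length equals the span of the gene, 6.98 kb, 20.77 kb and 83.44 kb, so that they are single-exon transcripts. The other 5 are spliced. Chromosome 12 carries 3 of them on its plus strand, where Meg3 runs from 109506879 to 109538163, Rian from 109570379 to 109628150 and Mirg from 109701415 to 109715892. Miat spans bases 112361094 to 112376814 of chromosome 5 (minus strand), and Snhg11 bases 158217633 to 158228394 of chromosome 2 (plus strand).

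The 3′ ends of Malat1 and Neat1 are shown because these were the 2 members highest in axons relative to cell bodies in +/+ motoneurons. Malat1 and the long isoform of Neat1 are known to end in a tract that is encoded in the genome, folds with U-rich stretches upstream of it and stands in place of an added poly(A) tail. The short isoform of Neat1 ends upstream of this tract with an ordinary poly(A) tail, and counts by gene cannot tell the isoforms apart. The 100 bases of Malat1 directly before mascRNA, its small tRNA-like product (chr19:5846010-5846109, minus strand), and the last 100 bases of Neat1 (chr19:5874736-5874835, minus strand) were read from the reference genome, GRCm39, with T for U. Capitals mark 3 stretches that the windows share.
Malat1: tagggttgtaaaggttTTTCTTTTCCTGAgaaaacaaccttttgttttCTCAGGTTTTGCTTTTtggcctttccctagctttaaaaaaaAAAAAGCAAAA
Neat1: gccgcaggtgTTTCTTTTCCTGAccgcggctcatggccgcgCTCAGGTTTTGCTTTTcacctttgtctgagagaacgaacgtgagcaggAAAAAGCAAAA
mascRNA: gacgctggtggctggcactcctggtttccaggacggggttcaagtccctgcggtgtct

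The last 500 bases of 13228 lncRNA genes of the count table were searched for these letters. TTTCTTTTCCTGA was found on the RNA strand of 2 windows (0.0151%) and on either strand of 4 (0.0302%). CTCAGGTTTTGCTTTT was found in 2 windows (0.0151%) on the RNA strand and in no further one on the other strand. AAAAAGCAAAA was found in 21 windows (0.159%) on the RNA strand and in 40 (0.302%) on either strand. The windows of Malat1 and Neat1 were the only 2 of this search that held all 3 on the RNA strand. The 58-base mascRNA (chr19:5845952-5846009, minus strand) is annotated as a gene of its own and had 77 counts in all, 5 and 2 in +/+ and Hnrnpr-/- somatodendritic and 43 and 27 in axonal libraries. It lies inside Malat1 on the same strand, where reads were divided between the overlapping genes. These counts are therefore not a measure of mascRNA apart from Malat1.

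Malat1 had 168, 217, 282 and 238 CPM in the 4 +/+ somatodendritic libraries and 357, 2122, 909 and 947 CPM in the +/+ axonal libraries. Every axonal library lay above every somatodendritic one, and axonal replicate 2 stood well above the other 3. The means were 226 ± 47.5 CPM and 1084 ± 743 CPM, 4.79-fold apart, with a log2 difference of 2.26 (standard error 0.42), or 1.70 without axonal replicate 2. Malat1 levels in Hnrnpr-/- motoneurons were 147, 381, 373 and 280.2 CPM in the cell body libraries and 542, 400.0, 531 and 500.0 CPM in the axonal ones. These groups did not overlap either, with means of 295 ± 109 and 493 ± 64.6 CPM and a log2 difference of 0.74 (standard error 0.40). Per kilobase, Malat1 ranked 23rd among the lncRNA genes in +/+ somatodendritic and 1st in +/+ axonal libraries, at 32.4 ± 6.80 and 155 ± 106 CPM per kb. Axonal replicate 2 had 304 CPM per kb and the other +/+ axonal libraries 51.2 to 136. The Hnrnpr-/- ranks were 16th and 4th, at 42.3 ± 15.6 and 70.6 ± 9.25 CPM per kb.

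Neat1 was far less abundant per kilobase, at 0.337 ± 0.224 CPM per kb in +/+ somatodendritic and 1.46 ± 1.09 CPM per kb in +/+ axonal libraries. It had 10.7, 2.61, 11.3 and 3.38 CPM in +/+ somatodendritic and 19.3, 22.6, 64.2 and 15.4 CPM in +/+ axonal libraries. The axonal libraries were again all higher, and replicate 3 was the highest. The log2 difference was 2.11 (standard error 0.59), or 1.49 without axonal replicate 3. The Hnrnpr-/- somatodendritic libraries had 7.24, 3.81, 15.2 and 7.29 CPM and the axonal ones 32.6, 15.0, 42.1 and 19.7 CPM. Here the lowest axonal library fell just below the highest somatodendritic one, and the log2 difference was 1.71 (standard error 0.59). Each axonal library was above the somatodendritic one of its number. Under RLE factors or library totals these groups did not overlap.

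Kcnq1ot1 had 20.1, 16.4, 22.6 and 23.6 CPM in +/+ somatodendritic and 15.3, 98.3, 37.7 and 25.6 CPM in +/+ axonal libraries. The groups overlapped, since axonal replicate 1 was lower than every somatodendritic library and replicate 2 was several times higher than all of them. The log2 difference of 1.10 (standard error 0.45) was 0.34 without axonal replicate 2. Means in Hnrnpr-/- motoneurons were 24.7 ± 7.77 CPM for somatodendritic and 20.9 ± 7.05 CPM for axonal libraries, a log2 difference of -0.24 (standard error 0.44). With 1 library left out it ran from -0.41 (without axonal replicate 3) to 0.02 (without somatodendritic replicate 2), so that its direction was not fixed.

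**Figure D1:**
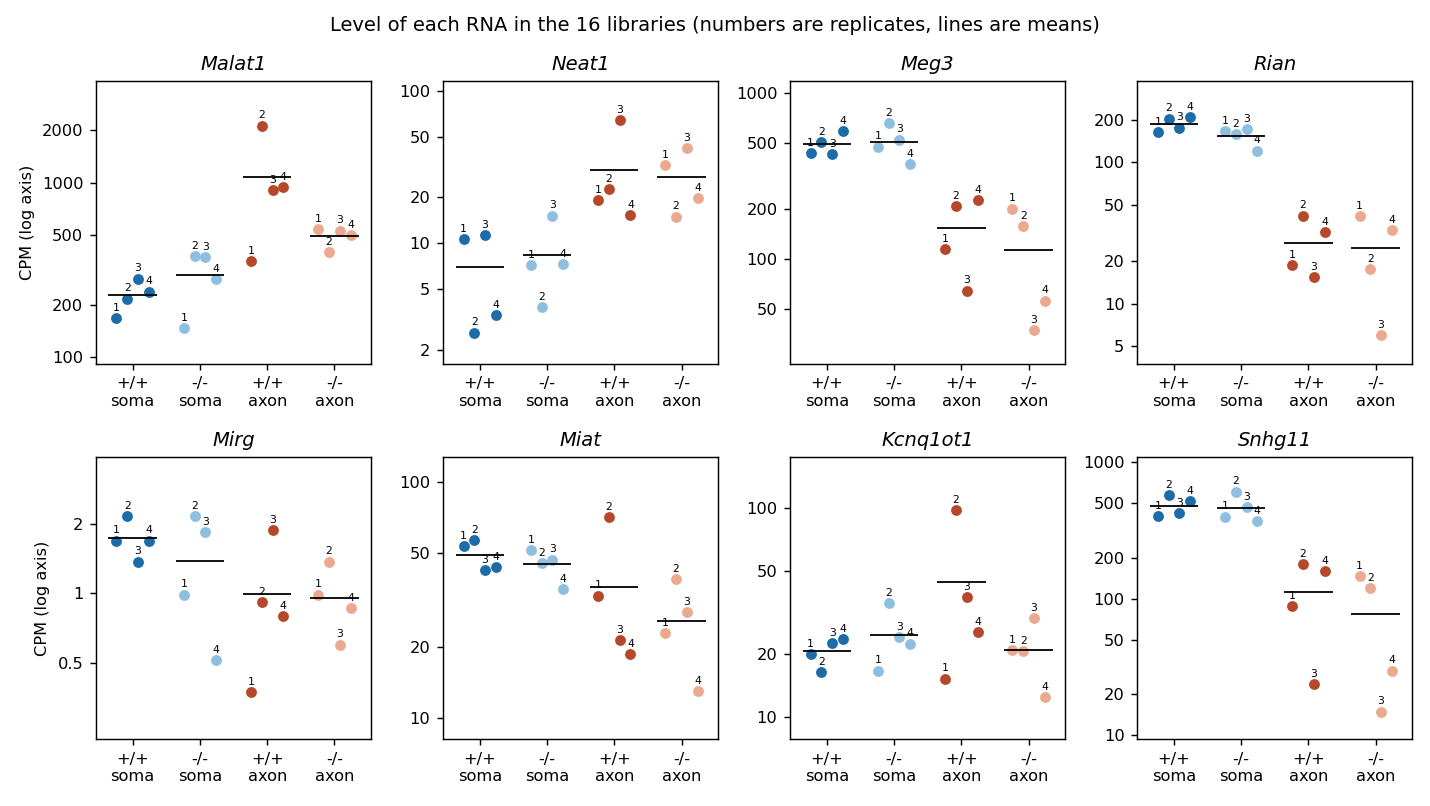
Level of each RNA as CPM (log axis) in the 16 libraries, by genotype and compartment. Each point is 1 library with its replicate number, and lines are group means. Malat1 and Neat1 lie higher in +/+ axonal than in +/+ somatodendritic libraries, whereas Meg3, Rian and Snhg11 lie lower in axonal libraries of both genotypes.

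Meg3 and Rian, maternally expressed from chromosome 12, had lower levels in axons. Meg3 had 434, 509, 430.1 and 589 CPM in +/+ somatodendritic and 115, 209, 64.3 and 227 CPM in +/+ axonal libraries. Each axonal library was below each somatodendritic one, with a log2 difference of -1.67 (standard error 0.47). Meg3 levels in Hnrnpr-/- motoneurons were 476, 658, 524 and 372 CPM on the somatodendritic and 201, 158, 37.2 and 55.9 CPM on the axonal side, a log2 difference of -2.16 (standard error 0.48). Axonal replicate 3 was the lowest in both genotypes.

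Rian, which hosts C/D box snoRNAs, had the lowest axonal level relative to cell bodies of the 8 RNAs in +/+ motoneurons. It had 163, 204, 176 and 209 CPM in +/+ somatodendritic and 18.7, 42.0, 15.3 and 32.0 CPM in +/+ axonal libraries, a log2 difference of -2.80 (standard error 0.46). The Hnrnpr-/- means were 155 ± 22.8 CPM and 24.6 ± 15.9 CPM, a log2 difference of -2.65 (standard error 0.46), and the groups did not overlap in either genotype. Snhg11 had -2.58 there, closer to Rian than the standard error, and without Hnrnpr-/- axonal replicate 1 the order turned, at -3.05 for Rian and -3.09 for Snhg11. Mirg, a host of miRNAs, was low at 0.374 to 2.16 CPM in the 16 libraries, that is 11 to 58 counts. Its compartments overlapped, with log2 differences of -0.79 (standard error 0.49) in +/+ and -0.53 (standard error 0.49) in Hnrnpr-/- motoneurons. These were -1.26 without +/+ axonal replicate 3, and -0.19 and -0.81 without Hnrnpr-/- somatodendritic replicates 2 and 4.

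Of the 2 RNAs known from neurons, Snhg11 was lower in axons in every library. It had 403, 578, 425 and 521 CPM in +/+ somatodendritic and 88.4, 180.1, 23.6 and 159.8 CPM in +/+ axonal libraries, a log2 difference of -2.09 (standard error 0.64). Hnrnpr-/- libraries had 400.4, 611, 469 and 371 CPM on the somatodendritic and 146, 119, 14.9 and 29.8 CPM on the axonal side, with a log2 difference of -2.58 (standard error 0.65). Its axonal levels spread 7.64-fold in +/+ and 9.80-fold in Hnrnpr-/- libraries, the widest of the 8 RNAs. Miat had 48.9 ± 7.11 CPM in +/+ somatodendritic libraries and 35.9 ± 24.0 CPM in +/+ axonal ones, and 44.6 ± 6.73 and 25.6 ± 10.7 CPM in Hnrnpr-/- motoneurons. The groups overlapped in both genotypes, and the log2 differences were -0.45 (standard error 0.37) and -0.80 (standard error 0.38). The +/+ value was -1.01 without axonal replicate 2 and -0.19 without axonal replicate 4.

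Thus 3 of the 8 RNAs had a higher fitted level in axons of +/+ motoneurons and 5 a lower one. In +/+ motoneurons 2 RNAs were higher in axons without overlap of libraries, Malat1 and Neat1, beside 24.8% of all genes tested, and 3 were lower without overlap, beside 27.6%. For Hnrnpr-/- motoneurons these counts were 1 and 3, beside 24.1% and 27.3%. The median log2 difference of all genes was 0.07 in +/+ and 0 after rounding in Hnrnpr-/- motoneurons. Scaling by library totals shifted these medians to 0.22 and 0.12, and the number of the 8 RNAs with a higher fitted level in axons stayed at 3 and 2.

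**Figure D2:**
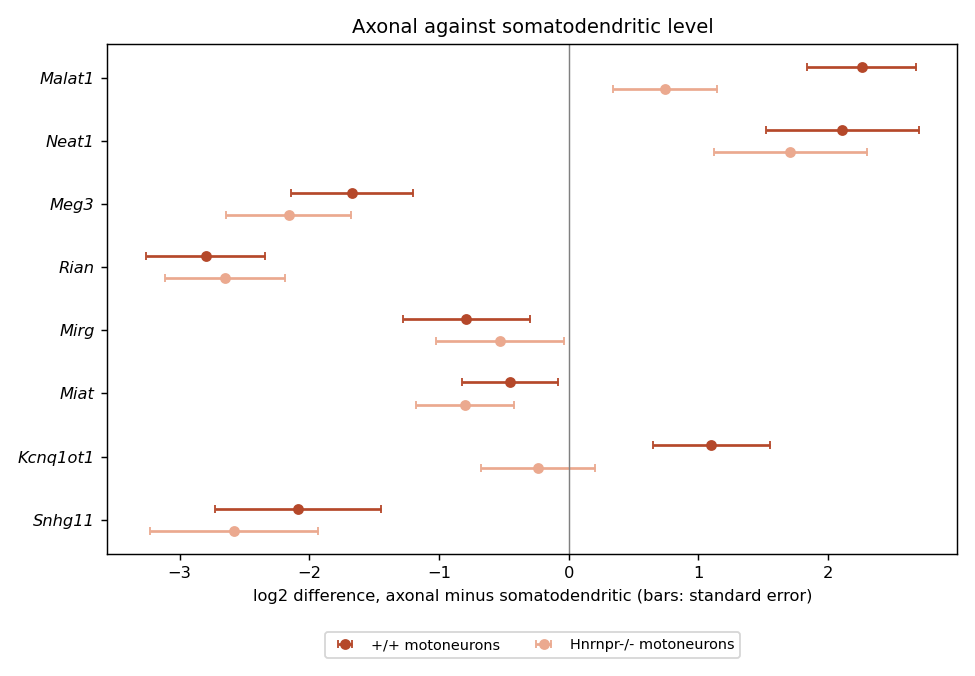
Fitted log2 difference between axonal and somatodendritic libraries for each RNA in +/+ and Hnrnpr-/- motoneurons. Points are estimates from 4 libraries per group and bars are standard errors. The estimates run from -2.80 for Rian to 2.26 for Malat1 in +/+ motoneurons.

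Ratios within a library do not depend on how libraries are scaled to each other. Malat1 counts were 0.386 to 0.656 times those of Meg3 in +/+ somatodendritic libraries and 3.12 to 14.1 times those of Meg3 in +/+ axonal libraries. In Hnrnpr-/- motoneurons these ratios were 0.308 to 0.752 and 2.53 to 14.2. The 8 RNAs together held 0.120% to 0.158% of all counts in +/+ somatodendritic and 0.0707% to 0.291% in +/+ axonal libraries, which overlapped. In Hnrnpr-/- motoneurons this total was 0.114% to 0.183% in cell body and 0.0690% to 0.101% in axonal libraries, all axonal ones being lower. Malat1 alone was 13.4% to 20.3% of this total in +/+ somatodendritic, 55.2% to 79.9% in +/+ axonal, 11.6% to 23.1% in Hnrnpr-/- somatodendritic and 51.9% to 77.0% in Hnrnpr-/- axonal libraries.

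RNAs of the same imprinted region did not keep a fixed ratio. Rian counts were 0.385 ± 0.0246 times those of Meg3 in +/+ somatodendritic and 0.186 ± 0.0428 times in +/+ axonal libraries, without overlap. In Hnrnpr-/- axonal libraries this ratio was 0.208, 0.111, 0.161 and 0.589, so that replicate 4 lay above all other libraries. The protein-coding gene Rtl1 lies on the opposite strand and overlaps the end of Meg3 by 7023 bases and the start of Rian by 474 bases. Its ratio to Meg3 was 0.212 ± 0.0249 in +/+ somatodendritic and 0.353 ± 0.0938 in +/+ axonal libraries. The methods name no step that marks the strand in the library kit, so reads of Meg3 or Rian and Rtl1 cannot be told apart where they overlap. The same holds for Kcnq1ot1, which lies inside Kcnq1 on the opposite strand, where Kcnq1 itself had 78 counts in all libraries together.

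**Figure D3:**
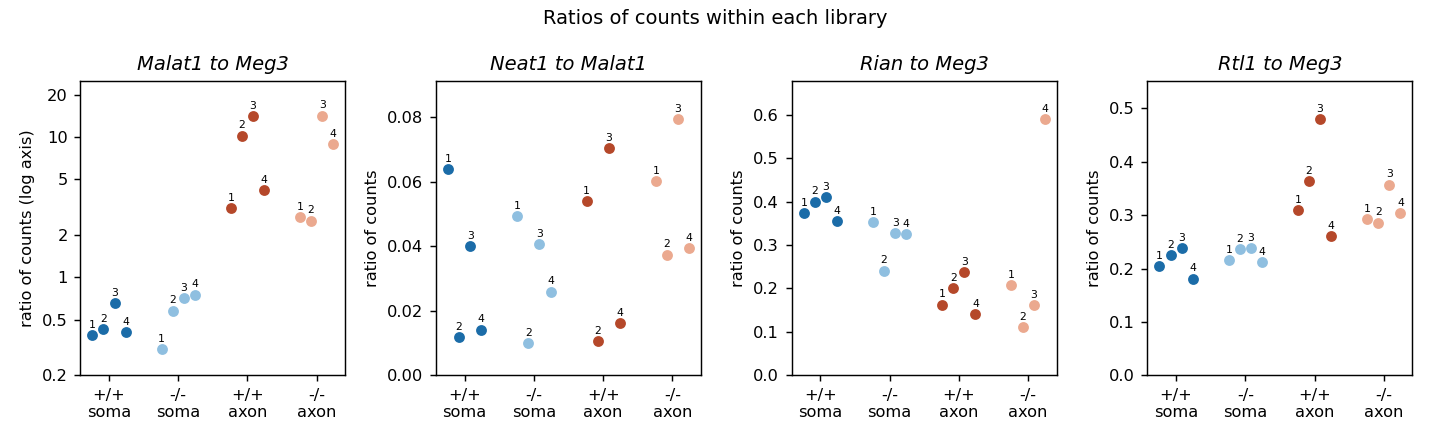
Ratios of counts within each library for Malat1 to Meg3 (log axis), Neat1 to Malat1, Rian to Meg3 and Rtl1 to Meg3. Points are libraries with their replicate number. Malat1 to Meg3 is 2.53 or more in every axonal and 0.752 or less in every somatodendritic library.

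Small RNA genes inside these RNAs had few counts. On the same strand and inside Meg3, Rian, Mirg or Snhg11, 28 miRNA and snoRNA genes are annotated, 15 and 13 of them, of which 27 had a count and 5 were tested. Together they had 4571 counts over the 16 libraries. Most of these belonged to Mir1906-1 in Meg3, with 1313 and 1088 counts in the +/+ and Hnrnpr-/- somatodendritic and 550 and 391 in the axonal groups. The 10 miRNA genes in Mirg had 205 counts and the 14 small RNA genes in Rian 509. The kit primes on poly(A) and is not made for processed small RNAs, which were not measured here.

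The next values give the cell types of the same libraries. The 7 pan-neuronal mRNAs Tubb3, Snap25, Rbfox3, Elavl3, Elavl4, Stmn2 and Map2 summed to 5171 to 5811 CPM in +/+ and 3784 to 5877 CPM in Hnrnpr-/- somatodendritic libraries. In axonal libraries they summed to 428 to 2362 and 309 to 3010.3 CPM, all 7 fell in both genotypes by edgeR's adjusted p, which 57.5% of all genes passed in +/+ and 54.2% in Hnrnpr-/- motoneurons, and replicate 3 was the lowest of each genotype. The summed level of the 8 fibroblast or meningeal markers was instead higher in axonal libraries, going from 122 to 975 CPM and 218 to 1460 CPM in somatodendritic to 1239.6 to 11723 CPM and 2323 to 10003 CPM in axonal libraries of +/+ and Hnrnpr-/- motoneurons. Their sum was highest in axonal replicate 3 of both genotypes, the libraries with the highest Neat1 and the lowest Meg3 and Snhg11. Among +/+ axonal libraries it was lowest in replicate 2, the one with the highest Malat1, Kcnq1ot1 and Miat. Among Hnrnpr-/- axonal libraries it was also lowest in replicate 2. That library had the lowest Malat1 of its group, 400.0 CPM, with Kcnq1ot1 at 20.7 CPM and the highest Miat, 38.6 CPM. Acta2, Fn1 and Pdgfrb were the 3 of these 8 that passed, higher in axons of both genotypes, and Acta2 alone had axonal means of 4055 CPM in +/+ and 3734 CPM in Hnrnpr-/- motoneurons. The other 5 did not pass, and Col3a1, Dcn and Lum had log2 differences of -0.53, -0.40 and -0.60 in Hnrnpr-/- motoneurons.

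The 8 astrocyte or radial glia markers summed to 1451 to 2218 CPM in +/+ and 1674 to 2746 CPM in Hnrnpr-/- somatodendritic libraries, and to 2627 to 5751 and 2422 to 4667 CPM in axonal ones. The 8 oligodendroglia or Schwann cell markers summed to 204 to 854, 287 to 1038, 201 to 1267 and 252 to 1787 CPM in the same order. The 5 endothelial markers summed to 68.5 CPM at most and the 6 microglial ones to 156 CPM, both in an Hnrnpr-/- axonal library. The 7 motoneuron markers were low, at 21.5 ± 6.87 CPM and 18.4 ± 2.7 CPM in +/+ and Hnrnpr-/- cell body libraries and at 8.41 ± 5.60 and 6.96 ± 2.89 CPM in the axonal ones. In +/+ somatodendritic libraries, Slc18a3 and Slc5a7, transporters of acetylcholine and choline, had means of 8.04 and 6.12 CPM, and the transcription factor Isl1 had 5.09 CPM. Prph had 1.31 CPM, Chat, which makes acetylcholine, 0.899 CPM and Isl2 0.0705 CPM, and Mnx1 had 0 counts in all +/+ libraries. The part of these cell types in the levels of the 8 RNAs was not tested, and in bulk samples fewer cells of a type and less RNA per cell cannot be told apart.

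**Figure D4:**
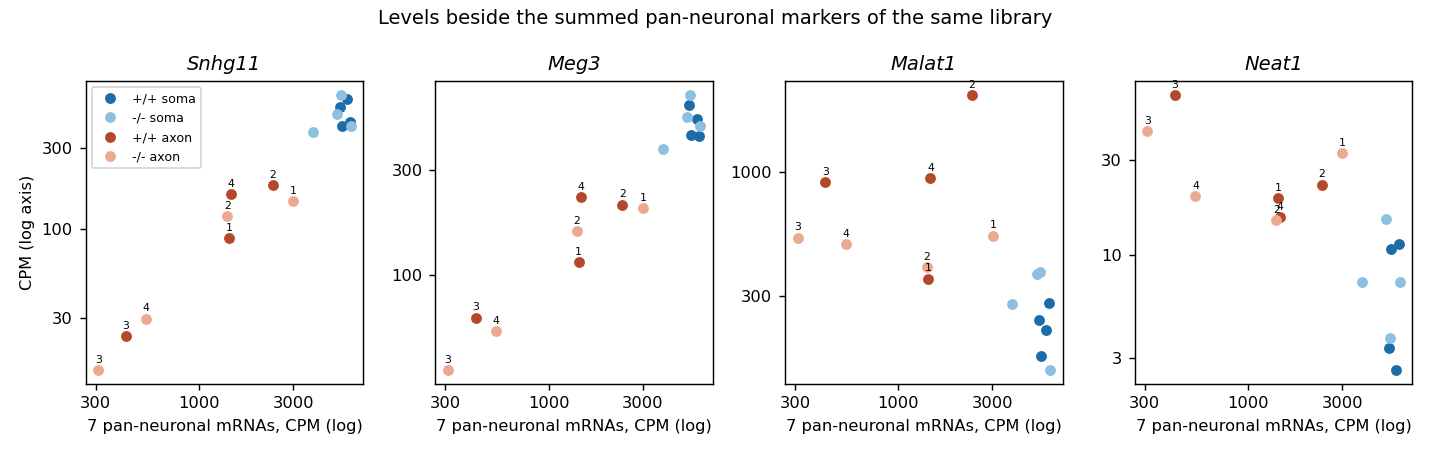
Levels of Snhg11, Meg3, Malat1 and Neat1 (CPM, log axis) against the summed CPM (log axis) of 7 pan-neuronal mRNAs in the same library. Points are the 16 libraries, with replicate numbers on axonal ones. Axonal replicates 3, at 428 and 309 CPM of neuronal mRNAs, have the lowest Snhg11 and the highest Neat1 of their groups.

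Among the axonal libraries, the RNAs fell into different company. Over the 8 axonal libraries, which share the differences in cell types given above, and among genes with a mean of at least 10 CPM in them, Meg3 was most alike to Snhg11 (Pearson r = 0.986 on log2(CPM + 1)), Pde10a (0.986) and Scn2a (0.984). Snhg11 was most alike to Ptprg (0.995), Dennd6b (0.993) and Creg2 (0.987). For Kcnq1ot1 the nearest genes were Ppig (0.987), Luc7l3 (0.985) and Son (0.978), and for Malat1 they were Rtn4 (0.960), 4930522L14Rik (0.958) and Zfp236 (0.954). Neat1 was nearest to Tm2d2 (0.978), Plekhj1 (0.977) and Gm3375 (0.975), Rian to Stx7 (0.953), 1110008P14Rik (0.946) and Ldb2 (0.934), Miat to Ctdspl2 (0.975), Tsr2 (0.974) and Khdrbs1 (0.969), and Mirg to Med26 (0.904), Dynll2 (0.859) and Dlg4 (0.845). Malat1 and Kcnq1ot1 had r = 0.89, with +/+ replicate 2 the highest library for both, and Malat1 and Neat1 r = 0.15. The 3 nearest genes were drawn from 11028 or 11029 compared, and these values carry no test.

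The genotype was not used to choose the RNAs and was tested within each compartment with edgeR's quasi-likelihood test. Hnrnpr itself fell from a mean of 212 to 0.876 CPM in axonal libraries, a log2 difference of -7.91 (standard error 0.55, adjusted p = 0.0039), and from 203 to 0.860 CPM in somatodendritic libraries, -7.88 (standard error 0.23, adjusted p = 5.98e-08). It was the 1 gene past an adjusted p of 0.05 in each compartment in edgeR, or 0.00501% of genes tested, and 0 of the 8 RNAs passed. The axonal call was lost without Hnrnpr-/- axonal replicate 2 and without both axonal libraries numbered 3, when 0 genes passed in edgeR and 134 and 165 had an unadjusted p under 0.05. In axons, 1 of the 8 had an unadjusted p under 0.05, beside 0.862% of all genes. In the somatodendritic compartment 0 of the 8 did, beside 2.75%, but without Hnrnpr-/- somatodendritic replicate 1 there were 3, Malat1 (0.61), Kcnq1ot1 (0.41) and Rian (-0.32), with adjusted p values of 0.197, 0.407 and 0.39 in edgeR, beside 2464 of the 20495 genes in that fit with an unadjusted p under 0.05.

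Malat1 was the one in axons, with 493 ± 64.6 CPM in Hnrnpr-/- and 1084 ± 743 CPM in +/+ libraries. Its log2 difference was -1.14 (standard error 0.45), with an unadjusted p of 0.034 and an adjusted p of 1 in edgeR. The groups overlapped, because +/+ replicate 1 at 357 CPM was below all 4 Hnrnpr-/- libraries, and an exact permutation test of log2(CPM + 1), two-sided, gave p = 0.143, where 0.0286 is the smallest that 4 against 4 libraries allow. Without +/+ axonal replicate 2 the log2 difference was -0.58 and the unadjusted p 0.12 in edgeR, and with any 1 of the 4 Hnrnpr-/- axonal libraries left out the unadjusted p was 0.0534 to 0.0798. Of all 16 libraries, +/+ axonal replicate 2 had the fewest genes with a count, 23490, and the highest share of lncRNA counts, 1.53%. The unadjusted p of Malat1 was under 0.05 in 11 of 18 alternative fits, which do not include the permutation test. These fits share libraries and are not independent. In the somatodendritic compartment Malat1 had a log2 difference of 0.38 (standard error 0.27, adjusted p = 0.998 in edgeR).

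Kcnq1ot1 had 20.9 ± 7.05 CPM in Hnrnpr-/- and 44.2 ± 37.2 CPM in +/+ axonal libraries, a log2 difference of -1.08 (standard error 0.55, unadjusted p = 0.0802 in edgeR), and -0.32 without +/+ axonal replicate 2. In the somatodendritic compartment it had 0.26 (standard error 0.21). Rian had the lowest unadjusted p of the 8 in the somatodendritic compartment, 0.0586 in edgeR, with 155 ± 22.8 CPM in Hnrnpr-/- and 188 ± 22.2 CPM in +/+ libraries and a log2 difference of -0.28 (standard error 0.13), against -0.14 (standard error 0.56) in axons. For the other 5 RNAs the axonal log2 differences ran from -0.54 for Snhg11 to -0.06 for Mirg and the somatodendritic ones from -0.32 for Mirg to 0.25 for Neat1. Their standard errors in axons were 0.48 to 0.78, so that changes of this size were not detectable with these libraries.

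The genotype effect in axons minus that in cell bodies passed an adjusted p of 0.05 for 0 of 19964 genes in edgeR. At an unadjusted p under 0.05 there were 265 genes (1.33%), among them 2 of the 8 RNAs. This fit pools both compartments, although fits of each alone had common dispersions of 0.303 in axons and 0.0535 in cell bodies. In the pooled fit the axonal genotype effect had unadjusted p values of 0.0136 for Malat1 and 0.0282 for Kcnq1ot1 in edgeR. Fitted on axonal libraries alone these were 0.034 and 0.0802, so p values of this difference may be too small where the spread is axonal. Malat1 had a difference of -1.52 (standard error 0.57, unadjusted p = 0.0178, adjusted p = 1 in edgeR) and Kcnq1ot1 of -1.34 (standard error 0.63, unadjusted p = 0.0497). With the replicate block, and with the block nested in genotype, Kcnq1ot1 had unadjusted p values of 0.101 and 0.147 in edgeR, leaving 1 of the 8, Malat1 (0.0339 and 0.0471). Without +/+ axonal replicate 2 the differences became -0.96 and -0.58, with unadjusted p values of 0.0574 and 0.216 in edgeR. With DESeq2's default settings 1 gene passed the adjusted and 521 genes the unadjusted threshold for this difference.

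**Figure D5:**
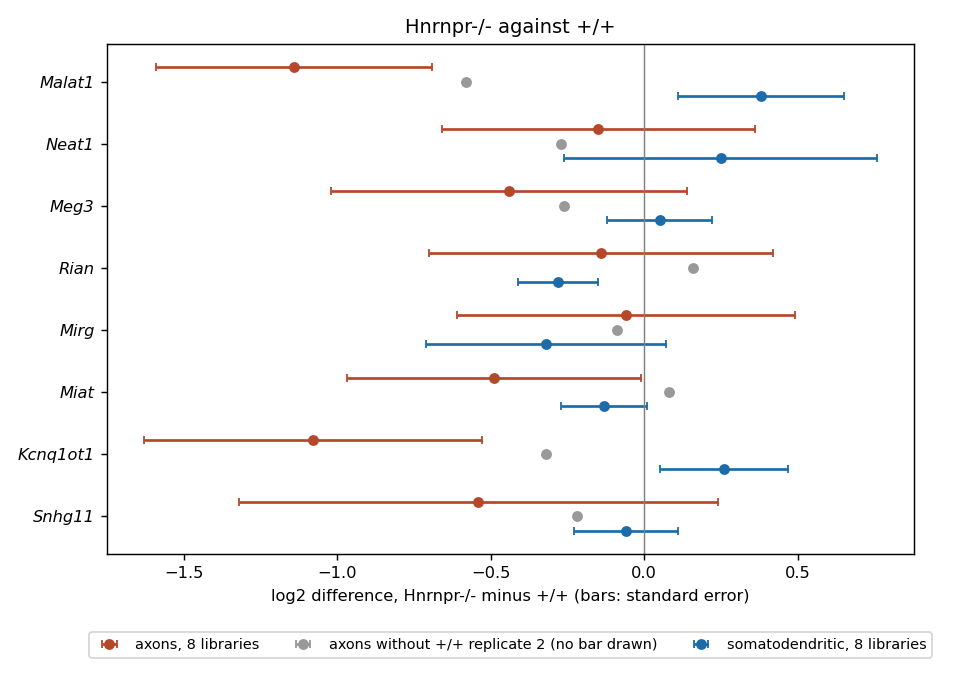
Fitted log2 difference between Hnrnpr-/- and +/+ libraries for each RNA in axons, in axons without +/+ replicate 2, and in the somatodendritic compartment. Points are estimates and bars are standard errors, drawn for the fits of 8 libraries. Malat1 moves from -1.14 to -0.58 and Kcnq1ot1 from -1.08 to -0.32 when that library is left out.

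Genes that work with these RNAs, and other lncRNAs for comparison, were followed as lists. Of 15 paraspeckle proteins, 15 nuclear speckle proteins, 11 proteins of nuclear RNA export, retention and turnover, 16 other nuclear and 7 cytoplasmic long noncoding RNAs, none passed an adjusted p of 0.05 for the genotype in axons, in the somatodendritic compartment or for their difference in edgeR. The medians of the lists for the genotype in axons were 0.04, -0.12, 0.10, -0.26 and -0.27 on the log2 scale, beside 0.02 for all genes.

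Between the compartments of +/+ motoneurons 57.5% of all genes passed an adjusted p of 0.05, 30.1% higher and 27.4% lower in axons. Of the paraspeckle proteins 4 were higher and 5 lower, with a median log2 difference of 0.03. Hnrnpk (0.49, standard error 0.16) was among the higher ones, Matr3 (-1.19, standard error 0.32) among the lower ones, and Ewsr1 had 0.42 (standard error 0.21), which did not pass. Of the nuclear speckle proteins 4 were higher and 2 lower, and those with the highest mean CPM, Sf3b1 (-0.01, standard error 0.16), Srsf3 (0.75, standard error 0.32) and Srrm2 (-0.37, standard error 0.19), did not pass. Of the export and turnover proteins 2 were higher and 1 lower. Hnrnpu, a nuclear matrix protein that binds Malat1 and Xist, had 0.11 (standard error 0.20), the export receptor Nxf1 0.18 (standard error 0.19) and the helicase Mtrex -0.30 (standard error 0.15), and these 3 did not pass.

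Of 16 other nuclear long noncoding RNAs 4 were higher and 7 lower in +/+ axons, with a median of 0.02. Snhg14 (-1.22, standard error 0.42), Tug1 (-1.59, standard error 0.29) and Peg13 (-2.92, standard error 0.52), those with the highest mean CPM, were all lower. Of 7 cytoplasmic long noncoding RNAs 5 were higher and 1 lower, with a median of 1.34. Gas5 (1.77, standard error 0.26), H19 (3.70, standard error 1.05) and Snhg6 (1.49, standard error 0.33) were among the higher ones. Single-exon lncRNA genes other than the 8, 146 in number, had a median of 0.24 in +/+ and -0.07 in Hnrnpr-/- motoneurons, and 2730 spliced ones -0.09 and -0.31.

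Among the imprinted neighbours, Rtl1 (-1.03, standard error 0.41) and Begain (-1.82, standard error 0.45) were lower in +/+ axons, whereas Dlk1 (0.03, standard error 0.22) and Dio3 (-1.42, standard error 0.73) did not pass. Of the 6 tested genes of the Kcnq1 domain 2 were higher, Cd81 (1.08, standard error 0.19) and Tssc4 (0.96, standard error 0.19), and Nap1l4 (-0.23, standard error 0.12) did not pass. None of these 10 passed an adjusted p of 0.05 for the genotype in either compartment, and 0 had an unadjusted p under 0.05.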

How the data were processed

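The 16 libraries were single-end SMART-Seq v4 and Nextera XT libraries. The authors trimmed reads with Cutadapt, aligned them with STAR (2.7.2b) to RefSeq GRCm39 and counted exons per gene with featureCounts (1.6.4) in the reverse-strand setting. Reads with several alignments or genes were divided, so the values the authors deposited are fractional read counts, that is expected counts, without normalization (39.1% of values above 0 were not whole). They were rounded to whole numbers, and no 2 libraries were identical.

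Each compartment was fitted alone with edgeR 4.0.16 (R 4.3.3, limma 3.58.1) by the quasi-likelihood test, with the expression filter and TMM factors from all 16 libraries, since the common dispersion was 0.303 in axonal and 0.0535 in somatodendritic libraries. The compartment differences and the interaction used all 16. P values are two-sided, and adjusted ones are Benjamini-Hochberg over 19964 genes. On simulated counts for these genes, with 100 genes changed by each fold, the axonal fit recovered 0 at a log2 change of 1 and 16 at 2, and the somatodendritic fit 42 and 68. Of unchanged genes 4.68% and 4.40% had an unadjusted p under 0.05.

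The 8 RNAs, the gene lists and the markers were chosen with earlier results of these data known. Besides the 8 and Hnrnpr, named genes are small RNA genes inside a member, list genes past the threshold for genotype or else up to 4 with the highest mean CPM, and the 3 genes most correlated with each member. The single cell type markers given with values were named after their values were seen. Mitochondrially encoded mRNAs were not analysed here, and 1 listed lncRNA had no row under its symbol. Pairing by replicate number is not stated in the labels. Deviations of same-numbered libraries correlated at 0.043 to 0.803 between genotypes in axons and at -0.003 to 0.514 in the somatodendritic compartment, so the genotypes were compared unpaired. Between compartments the range was 0.175 to 0.602 in Hnrnpr-/- and 0.086 to 0.314 in +/+ motoneurons. Alternatives were other size factors, filters, unrounded counts, DESeq2 1.42.0, blocks, 1 fit of all libraries, an exact permutation test and each library left out. Leaving out both axonal libraries numbered 3 was chosen after seeing the data.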

Additional observations from a re-analysis of the deposited data

Results flagged for a closer look

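Among the 32 sets of 4 libraries formed by the 8 RNAs and the 4 groups, 1 had a library far from the other 3. Neat1 had 64.2 CPM in +/+ axonal replicate 3, and its gap to the next library was 0.852 of the range of the group, above Dixon's critical value for 4 samples. Chance gives about 1 such set in 20. The same library had the lowest pan-neuronal sum (428 CPM) and the highest fibroblast or meningeal sum (11723 CPM) of the +/+ axonal libraries, and the part of these cells was not tested.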

How the results depend on the processing

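Under each alternative run, 0 of the 8 RNAs passed an adjusted p of 0.05 for the genotype in axons, for the genotype in the somatodendritic compartment or for the difference between them. In Hnrnpr-/- motoneurons, the number of RNAs higher in axons without overlap was 2 in place of 1 with RLE size factors and with library totals, and 1 to 2 with 1 library left out (2 without somatodendritic replicate 3 or axonal replicate 2), the second RNA being Neat1 in the scalings.

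Signs of small genotype differences changed. With 1 library left out, axonal log2 differences ran from -0.43 to 0.53 for Neat1, -0.52 to 0.20 for Rian, -0.32 to 0.46 for Mirg and -0.76 to 0.08 for Miat. In the somatodendritic compartment they ran from -0.20 to 0.59 for Neat1, -0.08 to 0.17 for Meg3 and -0.20 to 0.06 for Snhg11. For the difference between compartments they ran from -0.73 to 0.26 for Neat1, -0.24 to 0.47 for Rian, -0.62 to 0.21 for Miat and -0.0013 to 0.78 for Mirg. Without both axonal libraries numbered 3, Neat1 had 0.22 and Mirg 0.61 in axons. The causes were not tested.

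Same-numbered libraries were not shown to pair between genotypes. With the replicate block, Mirg had 0.12 in axons, and Malat1 -0.87 with an unadjusted p of 0.108 in edgeR. With the block nested in genotype, the difference between compartments was -0.02 for Rian. Both blocks took Kcnq1ot1 past an unadjusted p of 0.05 for that difference (0.101 and 0.147 in edgeR), leaving 1 RNA. No call at an adjusted p of 0.05 was changed by a block for the 8 RNAs.

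All-gene counts at an unadjusted p under 0.05 depended on the fit. In axons there were 172, against 775 with all 16 libraries in 1 fit, 565 without a filter, 421 and 321 with DESeq2 and 127 to 415 with 1 library left out. In the somatodendritic compartment there were 550, against 120, 1051 and 352 to 2464 for all 16 libraries, no filter and 1 library left out. For their difference there were 265, against 925 without a filter, 521 and 475 with DESeq2 and 192 to 671. Hnrnpr lost its axonal call, leaving 0 genes, without Hnrnpr-/- axonal replicate 2 and without both axonal libraries numbered 3. At an adjusted p of 0.05, 2 genes passed in axons with all 16 libraries in 1 fit and 2 in the somatodendritic compartment with DESeq2's default settings. Over the alternatives, Malat1 had axonal log2 differences of -1.42 to -0.58. The axonal difference of Kcnq1ot1 reached an unadjusted p under 0.05 with 2 of 18 alternative fits, all 16 libraries in 1 fit and +/+ replicate 1 left out (-1.36). The common dispersion in edgeR was 0.303 among axonal and 0.0535 among somatodendritic libraries.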

Other observations

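The ratio of Neat1 to Malat1 counts followed the library number in all 4 groups, and the CPM of Neat1 did so in +/+ somatodendritic and Hnrnpr-/- axonal libraries but not in the other 2 groups. Neat1 counts were 0.0640, 0.0120, 0.0401 and 0.0142 times those of Malat1 in +/+ somatodendritic replicates 1 to 4 and 0.0541, 0.0106, 0.0706 and 0.0163 times in +/+ axonal replicates 1 to 4. The Hnrnpr-/- ratios were 0.0494, 0.0100, 0.0407 and 0.0260 in somatodendritic and 0.0602, 0.0375, 0.0794 and 0.0395 in axonal libraries. In 4 of 4 groups both libraries numbered 1 and 3 were above both numbered 2 and 4. The pattern was noticed in these values and was not tested, and the labels do not say what a number stands for.

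Kcnq1ot1 was highest in the same +/+ axonal library as Malat1, replicate 2, and lowest in the same one, replicate 1. Its counts were 0.0270 to 0.0463 times those of Malat1 in +/+ and 0.0249 to 0.0560 times in Hnrnpr-/- axonal libraries, while Malat1 spread 5.94-fold and Kcnq1ot1 6.41-fold in the +/+ ones. In the Hnrnpr-/- axonal libraries Malat1 spread 1.35-fold and Kcnq1ot1 2.39-fold. In somatodendritic libraries the ratio was higher, at 0.0756 to 0.120 and 0.0650 to 0.114, without overlap with the axonal libraries of either genotype. Of the 3 single-exon transcripts, Kcnq1ot1 has 9 runs of 10 or more A in its 83437 bases, the longest of 41, Malat1 has 1, of 12, and Neat1 none, with a longest run of 7.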
